A study of Mus musculus with 11 samples.

Results

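The keratins that mark the layers of oral epithelium were followed in the gingiva of langerin-DTR mice. The set holds 10 genes, picked by symbol for their place in the tissue and by no cut on their values, though earlier results were known. Krt5, Krt14 and Krt15 belong to the basal layer and Krt1, Krt10, Krt2 and Krt76 to cornified suprabasal layers. Krt4, Krt13 and Krt78 belong to mucosal suprabasal layers. All 10 were found among the 55414 genes listed and among the 19170 genes with values. Gingival epithelium of 11 mice was sequenced, of which 5 had received PBS and 6 had received diphtheria toxin (DT). Injections were given on day 17, day 24 and day 31 of life and the tissue was taken at 8 weeks of age. Both groups carry the DT receptor, driven by langerin, and DT kills any cell that expresses it, whether or not it is a Langerhans cell (LC). By the study's account, LCs were absent soon after the injections and were back at their usual frequency at the age of collection. The comparison is thus between epithelia that did and did not go through DT injections and an earlier loss of LCs. No sequenced mouse received DT without carrying the receptor, so the toxin itself and the loss of LCs cannot be told apart. The methods describe the mice as male and the study's reporting summary describes them as sex-matched, and neither gives the sex of a single mouse.

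Keratins are the intermediate filament proteins of epithelial cells, and each filament is built from a type I and a type II keratin in equal parts. Dividing cells of the basal layer make the pair Krt5 and Krt14, while Krt15 is a further type I keratin of basal cells. Cells that leave the basal layer switch to another pair, which is Krt1 with Krt10 in cornified epithelium such as epidermis and Krt4 with Krt13 in the soft, non-cornified lining of the mouth. The gingiva is a masticatory mucosa that is exposed to chewing, and Krt76 is a suprabasal type II keratin of such hard-wearing oral surfaces. Krt2 is a late keratin of cornified skin and Krt78 is a type II keratin of suprabasal cells.

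The values are normalized counts, that is, reads per gene divided by a size factor of the mouse. Between 17509323 and 24325489 reads per mouse were recovered from them, so counting error is small for 9 of the 10 keratins and matters for Krt2 alone. The 10 genes of the epithelial marker list (Epcam, Cdh1, Dsp and others) summed to between 725610 and 857150 normalized counts in every mouse. By contrast, the 8 fibroblast markers summed to between 1490 and 2057 and the 9 leukocyte markers to between 802 and 3861. The 7 endothelial markers summed to between 63.5 and 148 and the 10 skeletal muscle markers to between 100 and 157. Lum, Kdr and Ckm were among those at 0 in at least 1 mouse. Dcn, at 994 to 1490, made up 68.0% of the fibroblast sum, and Thy1 was at 373 to 495. S100a9 made up 51.4% of the leukocyte sum. Cd207, which encodes langerin, had 10.0 to 43.0 normalized counts after PBS and 15.8 to 21.6 after DT, with a log2 fold change of -0.19 ± 0.30 (SE) and an adjusted p of 0.853 in limma, a linear model fitted over all genes. The median of Cd207 was 18.5 after PBS and 18.3 after DT. All 8 LC markers had a negative log2 fold change, with a median of -0.39 against -0.01 over all genes. A positive one was seen for 9075 of all 19170 genes. None of the 8 passed the threshold of 0.1 on the adjusted p, against 0.558% of all genes. Cd74 (-0.50, adjusted p 0.409 in limma) and Csf1r (-0.46, adjusted p 0.397) had the smallest p of the 8.

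The 10 keratins made up a large part of the epithelial RNA. They held between 12.4% and 13.6% of all normalized counts in a mouse, with 12.8% ± 0.213 after PBS (SD, n = 5) and 13.2% ± 0.326 after DT (SD, n = 6). The mucosal keratins accounted for 6.36% to 7.84%, the cornified keratins for 3.47% to 5.35% and the basal keratins for 1.32% to 1.73%. Krt13 was the most abundant transcript of the whole table in 11 of 11 mice, and Krt76 and Krt4 shared ranks 2 and 3. Krt2 was at the other end, between rank 5938 and rank 13037.

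Levels were set side by side between genes after division by the length of their annotated exons. Krt13 had 490224 ± 27516 normalized counts per kilobase (SD, n = 11), Krt76 had 314771 ± 35547 and Krt4 had 240675 ± 31422. The basal Krt14 had 113788 ± 11504 per kilobase, the cornified Krt10 had 86623 ± 15007 and the basal Krt5 had 40322 ± 2259. Krt15 with 6194 ± 806, Krt78 with 6044 ± 287 and Krt1 with 2969 ± 434 per kilobase lay far lower, and Krt2 had 28.5 ± 52.1. This order held in each mouse for 7 of the 9 neighbouring pairs. Krt76 exceeded Krt4 in 9 of 11 mice and Krt15 exceeded Krt78 in 6 of 11, so neither pair has a firm order. Krt76 and not Krt1, the usual partner of Krt10, was the cornified type II keratin with the highest level, 106-fold above Krt1 per kilobase of annotated exons, 75.2-fold per kilobase of the longest transcript and 55.5-fold in normalized counts. The labels name a kit for whole mRNA, while the study's methods follow the guide of a kit that reads 3' ends, for which a division by length would not apply. In normalized counts Krt15, with a mean of 10945, lay below Krt78 with 20774 and Krt1 with 13110, and the other places were the same.

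The genes sit in the keratin clusters of the mouse genome (GRCm38). The type I members lie on chromosome 11, Krt10 from 99385254 to 99389364, Krt13 from 100117327 to 100121566, Krt15 from 100131758 to 100135928 and Krt14 from 100203162 to 100207548. The type II members lie on chromosome 15, Krt5 from 101707070 to 101712898, Krt2 from 101810689 to 101818169, Krt1 from 101845426 to 101850794, Krt76 from 101884351 to 101892920, Krt4 from 101918535 to 101924735 and Krt78 from 101946001 to 101954287. All 10 are on the minus strand. Neighbours in a cluster need not move together: Krt76 and Krt4 lie next to each other in this list and, as described further on, varied in opposite directions between mice.

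RefSeq (GRCm38.p6) gives promoters for 7 of the 10 members, and for 6 of them the start site lay within 10 bases of the GENCODE start. The 200 bases before the start site are shown for Krt10 and Krt76, which varied together between mice, and for Krt13, the most abundant transcript. Capitals mark matches to TATAAA, the TATA box, and to TGACTCA, the AP-1 motif, searched on both strands. Krt13 has a second RefSeq start site 989 bases inside the gene, which is shown after the first.
Krt10, minus strand of chr11:99389365-99389564: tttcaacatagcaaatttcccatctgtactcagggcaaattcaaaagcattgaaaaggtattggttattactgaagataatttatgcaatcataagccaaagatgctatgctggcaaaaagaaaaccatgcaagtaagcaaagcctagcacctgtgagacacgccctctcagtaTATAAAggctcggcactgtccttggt
Krt76, minus strand of chr15:101892921-101893120: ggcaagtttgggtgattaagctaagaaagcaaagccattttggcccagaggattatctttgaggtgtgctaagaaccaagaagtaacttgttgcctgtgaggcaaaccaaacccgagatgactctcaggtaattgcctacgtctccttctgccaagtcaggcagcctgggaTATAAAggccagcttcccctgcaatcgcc
Krt13, minus strand of chr11:100121567-100121766: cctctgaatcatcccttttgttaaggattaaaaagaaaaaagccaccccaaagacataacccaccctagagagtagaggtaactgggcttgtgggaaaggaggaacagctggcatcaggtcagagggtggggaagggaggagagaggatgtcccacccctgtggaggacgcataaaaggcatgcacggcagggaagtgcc
Krt13, second start, minus strand of chr11:100120578-100120777: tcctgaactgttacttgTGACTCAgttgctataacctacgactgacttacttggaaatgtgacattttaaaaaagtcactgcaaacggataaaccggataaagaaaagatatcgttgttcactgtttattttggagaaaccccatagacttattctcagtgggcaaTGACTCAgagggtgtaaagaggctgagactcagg
TATAAA began 26 bases before the start site of Krt10 and 29 bases before that of Krt76, and was not found in the 300-base windows of Krt5, Krt2, Krt13 or Krt78. It was present in 13.6% of 32851 RefSeq promoters of the same length. TGACTCA was found in none of the 6 windows at a GENCODE start and began 183 and 34 bases before the second start site of Krt13, and 5.2% of these promoters held it. A match describes the letters of the window only.

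The question put to the keratins was whether the epithelium of DT mice differed from that of PBS mice in the makeup of its layers. None of the 10 keratins passed the threshold of 0.1 on the adjusted p, while 107 genes (0.558% of 19170) did, 60 of them higher and 47 lower after DT. The PBS and DT ranges overlapped for 10 of 10 keratins, and over all genes 1.65% did not overlap. A single keratin, Krt15, had an unadjusted p under 0.05, against 11.5% of all genes. Leaving out 1 mouse at a time moved the 107 to between 27 (without DT mouse 5) and 259 (without PBS mouse 5). The 10 log2 fold changes had a median of 0.09, the median over all genes was -0.01, and over the 305 genes with a mean over 8000 normalized counts it was 0.06. In bulk RNA of this kind fewer cells of a layer and less RNA per cell cannot be told apart.

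**Figure D1:**
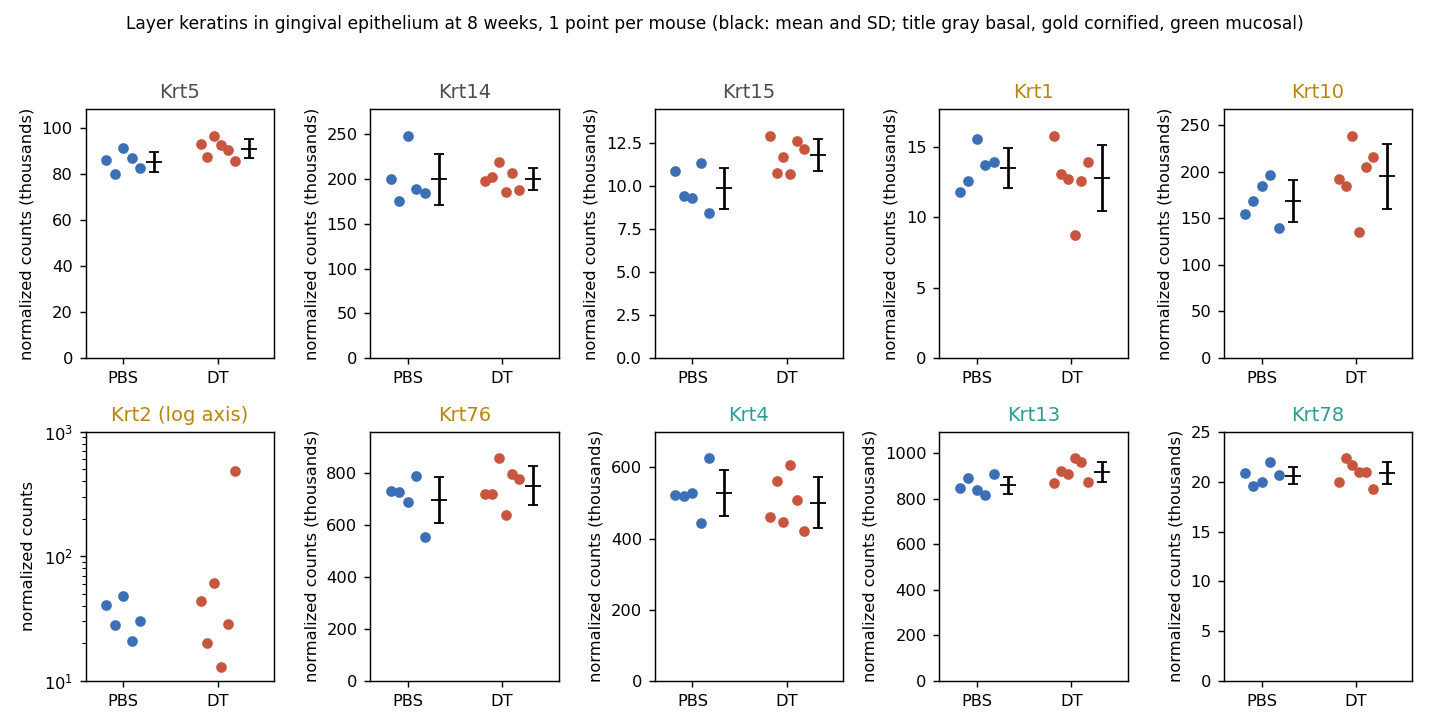
Normalized counts of the 10 layer keratins in each mouse (1 point per mouse, y axis from 0 in units of 1000, except Krt2 on a log axis in single normalized counts), PBS (blue, n = 5) and DT (red, n = 6), with the mean and SD in black except for Krt2. The groups overlap in every panel, 4 of 6 DT mice lie above the highest PBS mouse for Krt15, and 1 DT mouse at 483 stands apart for Krt2.

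Among the basal keratins, Krt15 came closest to a difference. After PBS the 5 mice had 10879, 9453, 9292, 11349 and 8468 normalized counts of Krt15. After DT the lowest of 6 mice had 10717, the median was 11950 and the highest had 12950. All 6 DT mice were above the PBS mean and 4 of 6 were above the highest PBS mouse, yet the ranges met between 10717 and 11349. The log2 fold change was 0.26 ± 0.077 (SE), a 1.20-fold higher level with a 95% interval of 0.10 to 0.43 on the log2 scale, and the adjusted p was 0.213 in limma (the two-sided exact permutation p, unadjusted, was 0.0216 for Krt15 and ran up to 0.900 over the 10 keratins). Without PBS mouse 4 the log2 fold change was 0.31 and the adjusted p 0.0908, which passes the threshold. Without DT mouse 5 the log2 fold change was 0.24 and the adjusted p 0.419 (limma). With quantile normalization the log2 fold change was 0.16, with a 95% interval of -0.023 to 0.34 and an adjusted p of 0.541 (limma).

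Krt5 and Krt14, the main basal pair, differed little. Krt5 had 86104, 80136, 91696, 86920 and 82754 normalized counts after PBS, and after DT the lowest was 85777, the median 91665 and the highest 96899. All 6 DT mice exceeded the PBS mean of Krt5, with a log2 fold change of 0.09 ± 0.070 (SE) and an adjusted p of 0.655 (limma). Krt14 had a log2 fold change of 0.01 ± 0.10 (SE) with a 95% interval of -0.21 to 0.23, and 3 of 6 DT mice were above the PBS mean. PBS mouse 3 held the highest Krt14 level with 248769 normalized counts, against 176162 to 219461 in the other 10 mice.

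For the cornified keratins the signs were mixed and no call was made. Krt10 had 155044, 168056, 184655, 196038 and 139228 normalized counts after PBS, and after DT the lowest was 135692, the median 198490 and the highest 238624. DT mouse 4 thus held the lowest Krt10 level of all 11 mice while the other 5 DT mice exceeded the PBS mean. The log2 fold change of Krt10 was 0.20 ± 0.14 (SE) with an adjusted p of 0.607, that of Krt76 was 0.11 ± 0.14 with an adjusted p of 0.816 and that of Krt1 was -0.09 ± 0.12 with an adjusted p of 0.814 (limma). Krt1 ranged from 11763 to 15530 normalized counts after PBS and from 8705 to 15797 after DT, where DT mouse 4 was the lowest of all and left out brought the log2 fold change of Krt1 to 0.01.

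Krt2 was barely expressed, with 40.7, 28.2, 48.3, 20.9 and 30.4 normalized counts after PBS. DT mouse 6 had 483, and the other 5 DT mice had between 12.9 and 61.4. The log2 fold change of 0.51 ± 0.65 (SE, adjusted p 0.814 in limma) became -0.15 without this mouse. In a search of all genes made after this was seen, DT mouse 6 held 2 other genes over 30 normalized counts and more than 3-fold above every other mouse, Fam71a with 81.4 and Iqcn with 71.8.

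Among the mucosal keratins Krt13 and Krt78 were even between mice and Krt4 was not. Krt13 had 847242, 890959, 836903, 819001 and 908309 normalized counts after PBS, and after DT the lowest was 870383, the median 916054 and the highest 978114. All 6 DT mice were above the PBS mean of Krt13 and 3 of 6 above the highest PBS mouse. Its log2 fold change was 0.10 ± 0.13 (SE) with an adjusted p of 0.836 in limma, and its unadjusted two-sided exact permutation p was 0.0519. The error of limma includes a trend over the level of expression, and without that trend the SE of Krt13 was 0.053. Krt4 had a log2 fold change of -0.08 ± 0.14 with an adjusted p of 0.875 and Krt78 one of 0.02 ± 0.055 with an adjusted p of 0.940. The coefficient of variation over the 11 mice was 4.75% for Krt78, the lowest of the members, 5.61% for Krt13 and 13.1% for Krt4.

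**Figure D2:**
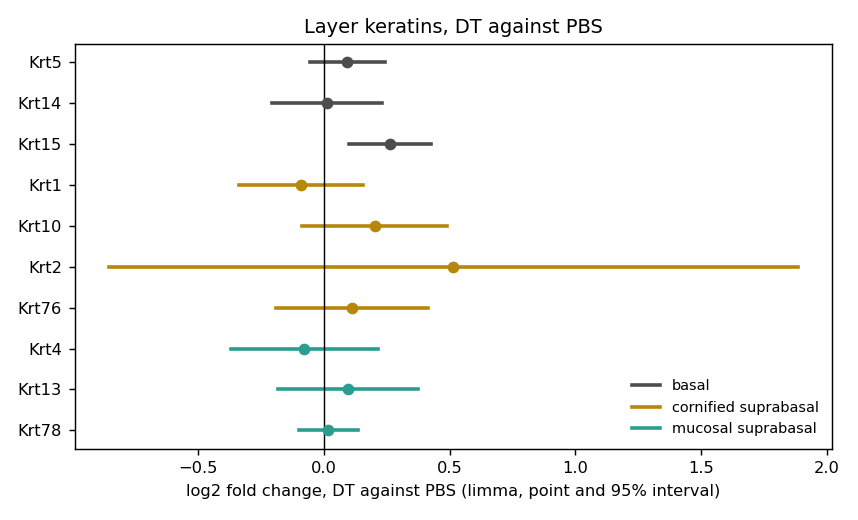
Log2 fold change of each keratin, DT against PBS (x axis), with its 95% interval from limma; gray marks basal, gold cornified and green mucosal keratins. The interval of Krt15 runs from 0.10 to 0.43, the other 9 intervals include 0, and that of Krt2 runs from -0.86 to 1.88.

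The ratio of a suprabasal keratin to the basal keratin of its own type describes the makeup of the layers within a mouse, since the size factor cancels. None of the 7 ratios differed between DT and PBS by a two-sided exact permutation test, whose smallest possible p was 0.00216, and after adjustment over the 7 ratios the lowest p was 0.436. The ratio of Krt10 to Krt14 was 0.775, 0.954, 0.742, 1.04 and 0.753 after PBS and 0.731 to 1.15 after DT, a log2 difference of 0.19 (exact permutation p = 0.193). The ratio of Krt1 to Krt5 was 0.137 to 0.169 after PBS and 0.0937 to 0.169 after DT, a log2 difference of -0.19 (exact permutation p = 0.249). These point in opposite directions although both numerators belong to the cornified pair. The ratio of Krt1 to Krt10 was lower than the PBS mean in 5 of 6 DT mice, at 0.0532 to 0.0821 against 0.0699 to 0.0998 after PBS, and was not tested.

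For the mucosal keratins the ratio of Krt4 to Krt5 was 5.11 to 7.56 after PBS and 4.61 to 6.55 after DT (log2 difference -0.17, exact permutation p = 0.223). The ratio of Krt13 to Krt14 was 3.36 to 5.06 after PBS and 4.13 to 5.26 after DT (log2 difference 0.08, exact permutation p = 0.504). That of Krt78 to Krt5 differed by -0.08 on the log2 scale (exact permutation p = 0.169), that of Krt76 to Krt5 by 0.02 (exact permutation p = 0.829) and that of Krt2 to Krt5 by 0.42 (exact permutation p = 0.773). Summed over the members, suprabasal keratins exceeded basal keratins 7.70-, 8.79-, 6.50-, 7.95- and 8.20-fold after PBS and 7.49- to 8.27-fold after DT. The log2 difference of this summed ratio was 0.03, with an SD of 0.16 between PBS mice and 0.06 between DT mice, and it was -0.04 without PBS mouse 3, 0.07 without PBS mouse 2 and -0.01 as a mean of log2 values per layer.

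**Figure D3:**
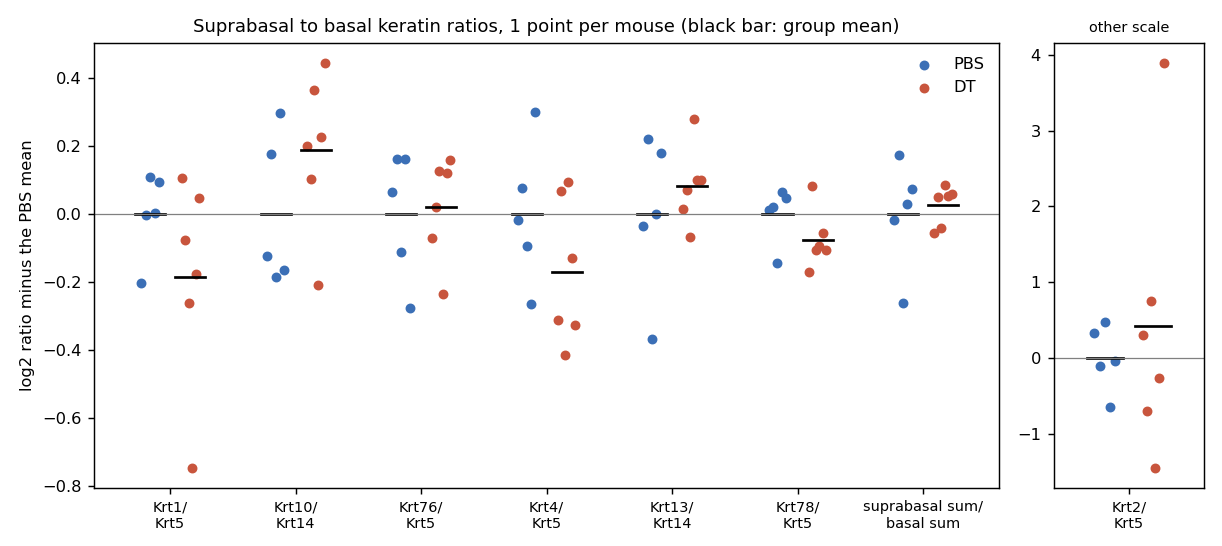
Ratios of suprabasal to basal keratins in each mouse, as log2 ratio minus the mean of the PBS mice (y axis; Krt2 to Krt5 at the right on its own scale), PBS (blue, n = 5) and DT (red, n = 6), with group means as black bars. The groups overlap for all 7 single ratios and for the summed ratio, where all mice lie between 6.50 and 8.79 before the log.

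A difference between single mice ran through both groups. Krt76 had 730801, 726723, 688440, 789084 and 554477 normalized counts after PBS, and after DT the lowest was 640374, the median 749368 and the highest 858053. Krt4 had 522904, 518656, 527055, 444529 and 625689 after PBS, and after DT the lowest was 420277, the median 485011 and the highest 608263. The mouse with the least Krt76 in each group, PBS mouse 5 and DT mouse 4, was the mouse with the most Krt4. PBS mouse 4 had the most Krt76 and the least Krt4 of its group, and DT mice 3 and 6 had low Krt4 with high Krt76 or Krt10.

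The ratio of Krt4 to Krt76 ran from 0.520 in DT mouse 3, 0.540 in DT mouse 6 and 0.563 in PBS mouse 4 to 0.950 in DT mouse 4 and 1.13 in PBS mouse 5. Cornified keratins summed to 0.455 of the mucosal keratins in PBS mouse 5 and to 0.806 in DT mouse 3, while the group ranges of this quotient, 0.455 to 0.777 after PBS and 0.488 to 0.806 after DT, covered nearly the same span. Over the basal keratins, cornified keratins summed to 2.54- to 3.53-fold, mucosal keratins to 3.96- to 5.63-fold and both together to 6.50- to 8.79-fold, all 11 mice included.

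**Figure D4:**
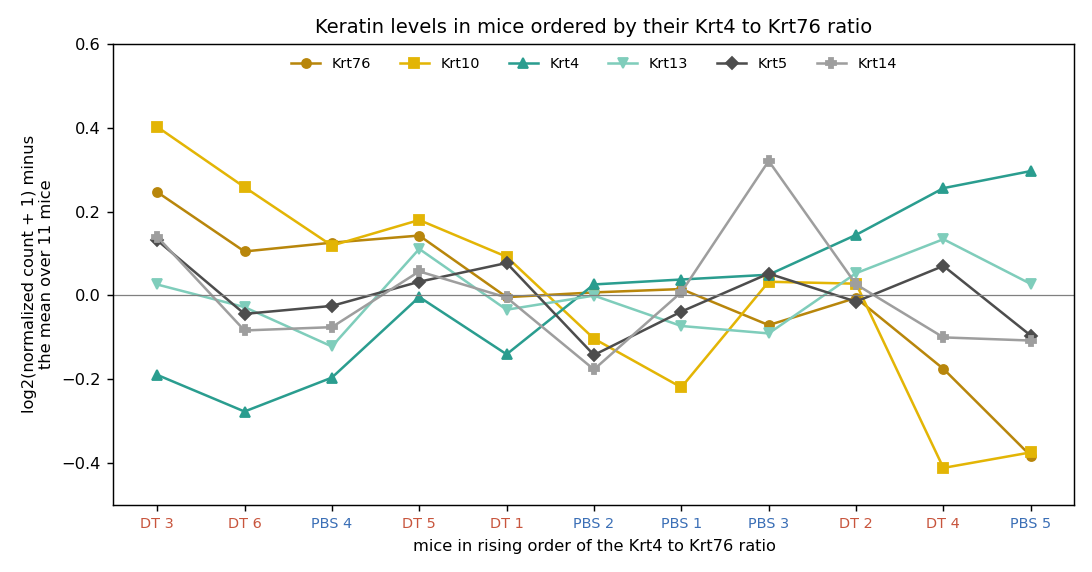
Level of 6 keratins (y axis, log2(normalized count + 1) minus the mean over the 11 mice) in mice placed in rising order of their Krt4 to Krt76 ratio (x axis; blue labels PBS, red labels DT). Krt76 and Krt10 are higher at the left and Krt4 at the right, which the ratio itself sets for Krt76 and Krt4, and mice of both groups are spread along the axis, from 0.520 in DT mouse 3 to 1.13 in PBS mouse 5.

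Over the 11 mice Krt10 and Krt76 had a Pearson r of 0.86 (permutation p = 0.00035, adjusted over 45 pairs 0.0158) and a Spearman rho of 0.81 (permutation p = 0.00384, adjusted 0.0576). Krt10 and Krt4 had an r of -0.85 (permutation p = 0.00121, adjusted 0.0181) and a rho of -0.85 (permutation p = 0.00144, adjusted 0.0576). Krt76 and Krt4 had an r of -0.82 (permutation p = 0.00114, adjusted 0.0181) and a rho of -0.83 (permutation p = 0.0028, adjusted 0.0576). These 3 pairs stood out among all 45 after their values were seen, and they passed 0.05 by r and not by rho. Without the 2 mice farthest from the median on the first gene, r was 0.75, -0.67 and -0.74, and as deviations from the group means it was 0.84, -0.85 and -0.82. The other 42 pairs had no adjusted p under 0.05 for r or rho. Among them the basal Krt15 and Krt76 had an r of 0.72 (permutation p = 0.0107, adjusted 0.12) and a rho of 0.70, and an r of 0.64 without the 2 farthest mice.

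Of 6 pairs chosen for their roles none passed 0.05. The basal partners Krt5 and Krt14 had an r of 0.62 (permutation p = 0.0387, adjusted over the 6 pairs 0.232) and a rho of 0.64 (permutation p = 0.0402). The mucosal partners Krt4 and Krt13 had an r of 0.49 and a rho of 0.45, the cornified partners Krt1 and Krt10 an r of 0.48 and a rho of 0.35, and Krt14 and Krt10 an r of 0.41 and a rho of 0.50. Krt10 and Krt13 had an r of -0.22 and a rho of -0.24, and Krt14 and Krt13 an r of -0.20 and a rho of -0.15. As deviations from the group means, r was 0.82 for Krt4 and Krt13 (permutation p = 0.00299, adjusted 0.0179), 0.74 for Krt5 and Krt14 (permutation p = 0.00597, adjusted 0.0179) and -0.66 for Krt10 and Krt13 (permutation p = 0.0246, adjusted 0.0491). The deviations were shuffled over all 11 mice, which ignores that group means had been taken out, so these permutation p can be too small. Without the 2 mice farthest from the median, r of Krt5 and Krt14 was 0.42, that of Krt1 and Krt10 0.05 and that of Krt10 and Krt13 0.31.

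**Figure D5:**
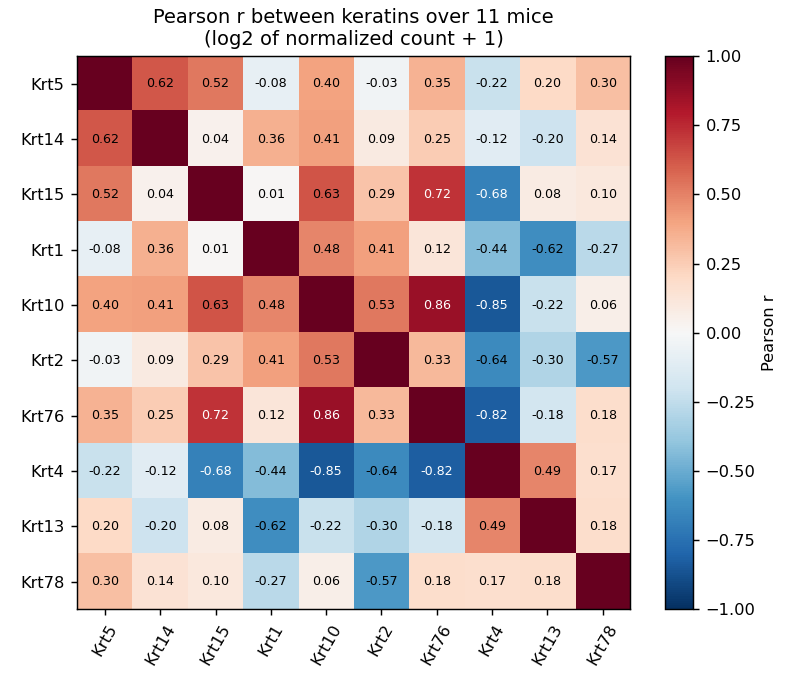
Pearson r between the 10 keratins over 11 mice, on log2(normalized count + 1), red for positive and blue for negative values. The strongest entries join Krt10 with Krt76 (0.86) and set both against Krt4 (-0.85 and -0.82).

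Other lists of epithelial genes were set along the ratio of Krt4 to Krt76, as 19 lists chosen for their roles, each summed per mouse. The ratio itself was taken up after the pair of Krt76 and Krt4 had stood out, and the adjustment covers the 19 lists only. The 15 genes of the basal layer other than keratins, among them integrins, laminins and the receptor gene Fgfr2, summed lower where the ratio was high, with an r of -0.85 (permutation p = 0.00077, adjusted over the 19 lists 0.0146) and a rho of -0.78 (permutation p = 0.00587, adjusted 0.0558). The r was -0.75 without the 2 mice farthest from the median. The 25 genes of suprabasal and cornified layers had an r of 0.69 (permutation p = 0.0193, adjusted 0.0766) and a rho of 0.59, and this list was split, with 15 of its genes positive and 10 negative along the ratio, from an r of 0.90 for Sprr3 to -0.79 for Dsg1a, a desmosomal cadherin. Of the 15 basal layer genes 14 were negative. Of the basal keratins, Krt15 had an r of -0.73 with the ratio, Krt5 one of -0.30 and Krt14 one of -0.19. Sprr3, a cornified envelope protein of the oral lining, had 59120 and 62241 normalized counts in PBS mouse 5 and DT mouse 4 and 39737 in DT mouse 3. Krt24, a type I keratin, ran the other way, with 125078 and 126360 in the same 2 mice and 187987 in DT mouse 3.

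Among the marker lists, that of the LCs alone had an adjusted permutation p below 0.0725 along this ratio, by rho and not by r. The 8 LC markers summed to between 2426 and 5670 normalized counts after PBS and between 1828 and 3508 after DT, none of them at 0, were each positive along the ratio, and had a rho of 0.88 with the ratio (permutation p = 0.00069, adjusted 0.0131) and an r of 0.75 (permutation p = 0.00767, adjusted 0.0729). Without the 2 mice farthest from the median r was 0.57. Epcam, which is also in the epithelial list, had the highest r of the 8 (0.83), and Cd74 made up 35.1% of the sum. The 6 measured junctional epithelium markers, a list for the epithelium attached to the tooth, had an r of 0.56 and a rho of 0.69 (adjusted 0.157 and 0.0725 by permutation), but 96.7% of their sum was Krt17 (r 0.52), and singly they ran from -0.29 for Krt7 over 0.04 for Krt8 to 0.64 for Odam. The 10 skeletal muscle markers, at 100 to 157 in all, had an r of 0.68 (adjusted 0.0766). The 10 epithelial markers, which include Krt5 and Krt14, had an r of -0.72 (adjusted 0.0766). For the other lists, which include markers of fibroblasts, endothelium, pericytes, leukocytes, melanocytes, salivary gland, nerve, hair follicle, tongue papilla and cycling cells, the adjusted p of r and of rho was 0.0725 or higher, and none of the 14 marker lists held a gene past the threshold between DT and PBS. The part of the sampled region, of the cell types and of the LCs in the spread of the keratins was not tested.

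None of the lists of layer genes held a gene past the threshold between DT and PBS. Of the 15 basal layer genes 12 had a positive log2 fold change, with a median of 0.08, and the smallest p belonged to Lamb3, a chain of the basement membrane laminin (log2 fold change 0.13, adjusted p 0.326), and Itga6, an integrin of hemidesmosomes (0.11, adjusted p 0.446). Of the 25 suprabasal and cornified genes 17 were positive, with a median of 0.03, led by Cdsn, which encodes corneodesmosin (0.21, adjusted p 0.257), and Dsg1b, a desmosomal cadherin (0.18, adjusted p 0.263). An unadjusted p under 0.05 was seen for 1 of the 15 and 2 of the 25, against 11.5% of all genes. Of the 26 regulators of layering 13 were positive, with a median of -0.0014, and 6 had an unadjusted p under 0.05. The regulators with the smallest p were the transcription factors Grhl2, at 1404 to 1735 normalized counts after PBS and 1671 to 2110 after DT (0.30, adjusted p 0.126), and Prdm1, at 1775 to 2160 and 2126 to 2583 (0.24, adjusted p 0.154). Over all genes tested the median was -0.01 and 0.558% passed. A positive log2 fold change was seen for 9075 of all 19170 genes and for 243 of the 305 genes with a mean over 8000 normalized counts.

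The 33 other keratin genes with values gave no call either, and none had an unadjusted p under 0.05, against 11.5% of all genes. The lists of 18 other type I and 13 other type II keratins had medians of 0.05 and -0.05. Smallest in p were Krt27 (0.66, adjusted p 0.435, at a mean of 5.63 normalized counts) and Krt42 (0.22, adjusted p 0.438) of type I, and Krt79 (-0.36, adjusted p 0.621) and Krt82 (0.50, adjusted p 0.646) of type II. Abundant among them were Krt6a, Krt6b and Krt16, keratins of stressed and hard-wearing epithelia, with means of 252675, 198931 and 171927 normalized counts and log2 fold changes of 0.05, -0.04 and -0.05.

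For 3 keratins the genes most alike across mice were looked up, by the r of deviations from the group means over 10010 genes whose mean reached 100 normalized counts. For Krt14 they were Eftud2 (0.96), Csnk1d (0.93) and Krt16 (0.92). For Krt10 they were Mta1 (0.97), Krt24 (0.95) and Pmvk (0.94), and for Krt13 they were Cd99l2 (0.97) and Cab39l (0.93). With 11 mice and this many genes, values of this size are a description only. Krt14 shares sequence with Krt16: 14.4% of its 50-base stretches occur in transcripts of other genes, most of them in Krt16 (11.4%) and the rest in Krt17, so reads of these genes may be split or lost in counting. The share was 12.2% for Krt5, mainly with Krt6a, 2.74% for Krt76, 2.44% for Krt10 (an antisense gene that overlaps it by 558 bases, with no strand setting of the counter given in the sources used here), 0.666% for Krt15, and 0 for Krt1, Krt2, Krt4, Krt13 and Krt78.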

How the data were processed

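RNA of gingival epithelium from 11 langerin-DTR mice (PBS, 5 mice; DT, 6 mice) was sequenced from poly(A)-selected stranded libraries. The authors trimmed, aligned and counted the reads per gene and deposited normalized counts, given after division by DESeq2 size factors. The submitters' processing notes name cutadapt 2.10, TopHat2 2.1.1, HTSeq 2.01, DESeq2 1.36.0 and GRCm39, whereas the paper's methods name other versions and GRCm38 and describe a comparison of ages, so the build counted on is uncertain. A further 36244 listed genes have no value and were not tested. Low values of a mouse could all be divided into whole reads (tolerance 0.1), which gave the depth, and the values were not treated as counts.

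DT was compared with PBS with limma 3.58.1 (R 4.3.3, intensity trend) on log2 of the normalized count after addition of 1, which understates fold changes of low genes. All 19170 genes were tested, p-values were adjusted by Benjamini-Hochberg and the threshold was 0.1. Two-sided exact permutation tests were used for ratios (threshold 0.05) and for single genes, and correlations were tested with 100000 permutations. The labels do not say whether mice share a litter or cage, so p-values measure the spread between these mice. The members, lists and tests were chosen with earlier results of these data known. Genes named are the 10 keratins, in each list the 2 with the smallest p where none passed, and the 3 genes most alike to Krt14, Krt10 and Krt13, of which 1 is not reported here. Sprr3, Dsg1a, Fgfr2, Odam, Krt7, Krt8, Krt17, Krt6a, Krt6b, Fam71a, Iqcn and the pairs beyond the 6 chosen were named after their values were seen. The ratio of Krt4 to Krt76 was likewise taken up after the values were seen. The lists cover layer genes, other keratins and markers of 14 cell types. Positions and exon lengths are from GENCODE M21 (GRCm38) and promoters from RefSeq (GRCm38.p6). The limma fit, and not the ratio or correlation tests, was tried on simulated data in which every gene had the same dispersion.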

Additional observations from a re-analysis of the deposited data

Results flagged for a closer look

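In 36 groups of values screened (10 keratins, 7 ratios and the summed ratio, PBS and DT apart), 2 held a mouse far from the others by Dixon's ratio, and chance flags about 1 in 20 groups. Krt2 in DT mouse 6 had 483 normalized counts, with the nearest DT mouse at 61.4 and a gap of 0.897 of the range. The ratio of Krt78 to Krt5 in PBS mouse 3 was -2.19 on the log2 scale, with the nearest PBS mouse at -2.04 and a gap of 0.739 of the range. PBS mouse 3 was also the mouse with the most Krt14 and the lowest summed ratio of suprabasal to basal keratins (6.50).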

How the results depend on the processing

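0 of 10 keratins passed the threshold under each of 9 alternatives (pseudocounts, low-value filter, TMM, quantile normalization, array weights, both blocks, no intensity trend). Leaving out a mouse gave 0 to 1, the 1 being Krt15 without PBS mouse 4. Since 0.558% of all genes passed in the main fit, 0 of 10 is a usual result and does not measure how stable the keratins are. The number of all genes past the threshold was 107 and moved to 189 with array weights. It moved to 4 without the intensity trend, an alternative added after the data were seen. When a mouse was left out it moved to between 27 (without DT mouse 5) and 259 (without PBS mouse 5). The change was over 1.5 times for 9 of the 11 mice. Signs turned for uncalled keratins: Krt78 to -0.032 with quantile normalization, which set Krt13 to 0 because it is first in every mouse. Leaving out a mouse gave -0.030 to 0.094 for Krt14, -0.16 to 0.014 for Krt1, -0.15 to 0.87 for Krt2 and -0.0032 to 0.040 for Krt78. With the geometric mean of Krt5, Krt14 and Krt15 as the denominator the difference was -0.0096 for Krt76 and -0.027 for Krt13. Leaving out a mouse gave -0.048 to 0.072 for Krt76 to Krt5, -0.0083 to 0.14 for Krt13 to Krt14 and -0.28 to 0.79 for Krt2 to Krt5. Without the 2 mice farthest from the median, r was 0.054 for Krt1 and Krt10, 0.31 for Krt10 and Krt13 and 0.14 for Krt14 and Krt13, and as deviations from the group means it was -0.66 for Krt10 and Krt13, 0.82 for Krt4 and Krt13 and 0.74 for Krt5 and Krt14. The summed ratio, at 0.025, was -0.040 to 0.069 when a mouse was left out and -0.013 as a mean of log2 values per layer. The cause of these shifts was not tested.

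Mice of the same title number did not deviate together (r from -0.23 to 0.32 over 13477 genes), so the numbers were not taken to pair them. With a replicate block on that number, which leaves out DT mouse 6, 35 genes passed, Krt2 was at -0.15, and the ratio differences were -0.28 for Krt2 to Krt5 and -0.0074 for Krt76 to Krt5. With a replicate block on the library number 0 genes passed in limma and 1404 had an unadjusted p under 0.05. Tests on recovered reads with count models were planned and not run: the deposited values were kept as normalized, although the low values of every mouse divided into whole reads. Whether a count test would change a call was not tested.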
